A study of Xenopus laevis with 4 samples.

Results

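The extracellular matrix genes measured here were taken by gene symbol: collagens, laminins, fibronectin, fibrillins, fibulins, nidogens, thrombospondins and other matrix glycoproteins, matrix proteoglycans, matrix metalloproteinases with their inhibitors, and enzymes that modify collagen. The rule used symbols and no measured value, and kept only probe sets annotated with exactly 1 gene. It found 69 probe sets for 53 genes, among 15491 probe sets that are not controls, of which 9304 carry 1 symbol. Of the 69, 32 probe sets for 28 genes were bright enough to be tested.

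Buds of the embryonic pancreas were dissected from *Xenopus laevis* tadpoles, an allotetraploid frog in which many genes exist as a .L and a .S copy (homeologues). Dorsal buds gave 2 pools and ventral buds another 2, all taken before the buds fuse. All embryos were raised in 0.1X MMR, a salt medium, and all tadpoles were anaesthetised with MS-222. Each pool held 1000 to 3000 buds and was hybridised to its own Affymetrix array. The labels give 1 to 5 ng of total RNA, without making clear whether this is per bud or per pool, beside a typical input of 10 μg for labelling. Whether the RNA was amplified further is not given in the sources used here. Strain, genotype and developmental stage are not given in the sources used here. A pool mixes all cells of the dissected buds, so fewer cells of a type and less RNA per cell cannot be told apart. Nothing says that pools of 1 kind came from separate batches of animals, so the p-values reflect a spread between samples that may be technical.

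The matrix around an embryonic gut bud has 2 parts. A basement membrane of laminin and type IV collagen networks, joined by nidogens and heparan sulphate proteoglycans, lies under the epithelium. Outside it, mesenchymal cells lay down an interstitial matrix of fibrillar collagens, fibronectin, microfibrils and proteoglycans, which metalloproteinases cut and tissue inhibitors of metalloproteinases protect. In the pancreas, signals and matrix from the surrounding mesenchyme are known to support growth of the epithelial buds.

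The arrays had been scaled to a common mean of 100 over non-control probe sets, and having 4 arrays in all limits how precise any comparison can be. The ratio of the 3′ to the 5′ control probe set of GAPDH, a sign of RNA integrity and of labelling, was 9.69 and 5.53 in dorsal replicates 1 and 2, against 7.52 and 7.55 in the ventral replicates. For beta-actin that ratio was only 0.217 and 0.095 in dorsal and 0.153 and 0.144 in ventral arrays. The controls therefore give no single reading of RNA integrity. Among the marker lists, pancreatic endoderm (14 probe sets, ins.L and ins.S included) had a summed intensity of 7484 and 6191 in dorsal arrays, against 3459 and 2141 in ventral arrays. Much of the dorsal sum came from insulin: ins.S had 1970 and 2670 in dorsal and 73.2 and 41.8 in ventral arrays. For ins.L the values were 1383 and 1235 in dorsal and 32.7 and 26.3 in ventral arrays. The median log2 difference of the 11 pancreatic endoderm probe sets tested was 0.14, with 7 positive and 4 negative. Skeletal muscle markers (34 probe sets, 13 of them at or below the highest empty control in all 4 arrays) summed to 804 and 554.9 in dorsal and 1463 and 1887 in ventral arrays. Blood markers (21 probe sets, 9 of them that dim) summed to 9366 and 5995 in dorsal and 11119 and 15463 in ventral arrays. In limma, an unadjusted p under 0.05 with the ventral mean above was reached by 15 of 20 muscle and 9 of 11 blood probe sets tested. After adjustment 0 of either list passed. Of all probe sets tested, 5.21% reached such an unadjusted p with the ventral mean above, and 0.183% passed adjustment in that direction. Liver markers (27 probe sets, 5 of them that dim) summed to 3688 and 6364 in dorsal and 8760 and 8694 in ventral arrays. Of 23 liver probe sets tested, 12 reached an unadjusted p under 0.05 with the ventral mean above, and 2 of these passed adjustment in limma, both higher in ventral buds. One of them, itih2.S, had 47.6 and 64.8 in dorsal and 1033 and 886 in ventral arrays (-3.97 ± 0.20, adjusted p = 0.000742). Mesenchyme and smooth muscle markers (16 probe sets, 5 of them that dim) overlapped, with dorsal sums of 711 and 1010 and ventral sums of 838 and 1106. Endothelium markers (7 probe sets) summed to 254 and 256 in dorsal and 198 and 252 in ventral arrays, with the dorsal arrays narrowly above. Of the 6 endothelium probe sets tested, 0 reached an unadjusted p under 0.05 in limma. Notochord and cartilage (5 probe sets, 2 of them tested) summed to 89.4 and 128 in dorsal against 142 and 186 in ventral arrays, without overlap. Neural markers (18 probe sets, 4 of them tested) overlapped, at 116 and 281 against 149 and 193. The brightness filter may have favoured a direction in these marker counts. Among the 15 muscle probe sets, that of myh8.L had a dorsal mean intensity of 11.9, where the filter corresponds to 15.1. It was tested only through its ventral values (mean 72.4), so its direction carries no weight. How many other marker probe sets share this limit was not counted.

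The comparison addresses how matrix gene expression differs between the buds. In tested probe sets, col1a1.S, col3a1.S and col6a1.L (chains of type I, III and VI collagen) and bgn.L (biglycan) had their ventral arrays above their dorsal arrays. So did fn1.S (fibronectin) in 3 of its 4 probe sets, and the proteases mmp9.1.S and mmp7.L. The genes nid2.L (nidogen 2), sparc.L, thbs3.L (thrombospondin 3), fbln1.L (fibulin 1) and col9a1.L (a type IX collagen chain) had their dorsal arrays above. Other matrix genes overlapped in the probe sets tested, among them the partner chains col1a2.L and col6a2.L, and col2a1.S, fbn3.L and tnc.L. Ventral arrays also lay above in tested probe sets of vcan.L, col18a1.L, timp3.L and tgfbi.L. Without ventral replicate 2 the differences shrank to -0.17 and -0.31 for col1a1.S and -0.48 for col6a1.L. No single matrix probe set passed the threshold: in limma, with p-values adjusted over 9294 probe sets by the Benjamini-Hochberg method, 0 of 32 had an adjusted p under 0.05, the lowest being 0.0957. Of all probe sets tested 0.258% passed, 0.0753% dorsal and 0.183% ventral. An unadjusted p under 0.05 was reached by 14 of the 32 (43.8%), 5 dorsal and 9 ventral, against 8.62% of all probe sets tested (3.41% dorsal and 5.21% ventral). These 14 stand for 12 genes, 5 dorsal and 7 ventral, since 3 of them target fn1.S. With 1 probe set per gene the count was 11 of 28, 5 dorsal and 6 ventral, against 9.4% of genes tested. With no filter on dim probe sets it was 17 of 69 (24.6%), 7 dorsal and 10 ventral, against 8.31%. The count of 14 depends on single arrays: it was 18 without dorsal replicate 1 (24.3% of all probe sets tested), 21 without dorsal replicate 2 (16.3%), 8 without ventral replicate 1 (3.92%) and 4 without ventral replicate 2 (3.04%).

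The groups did not overlap in 19 of the 32 tested probe sets, 5 with both dorsal arrays above and 14 with both ventral arrays above, where 39.9% of all probe sets tested did not overlap (21.9% dorsal and 18.1% ventral). The median log2 difference of the 32 was -0.34, dorsal minus ventral, beside 0.03 over all probe sets tested. Differences were mostly small: 5 of 32 reached 1 log2 unit, a 2-fold difference, and 16 lay under 0.5. Among all probe sets tested, 2.27% reached 1 log2 unit and 89.1% lay under 0.5. A filter on mean brightness keeps a gene that is dim in 1 group through its high values in the other. The 2 tested members with a group mean below the filter are mmp7.L and mmp9.1.S. Both count among the 14 with ventral arrays above and among the 9 with an unadjusted p under 0.05 on the ventral side. In the 14, fn1.S and col1a1.S also count more than once. Without dorsal replicate 1 the median was -0.14, and without dorsal replicate 2 it was -0.58. Without dorsal replicate 1, 10 members passed adjustment, 5 in each direction, beside 9.71% of all probe sets tested, and without dorsal replicate 2, 6 passed, all ventral, beside 3.74%. The 10 were col9a1.L, thbs3.L, sparc.L, sparc.S and nid2.L on the dorsal side, and col3a1.S, col6a1.L, mmp7.L, mmp9.1.S and 1 probe set of fn1.S on the ventral side. The 6 were 3 probe sets of fn1.S, col1a2.L, col18a1.L and mmp9.1.S. In such fits the lone dorsal array is assumed to vary like the ventral ones. Over all probe sets tested, though, the SD of the replicate difference was 0.483 in the dorsal and 0.288 in the ventral pair.

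**Figure D1:**
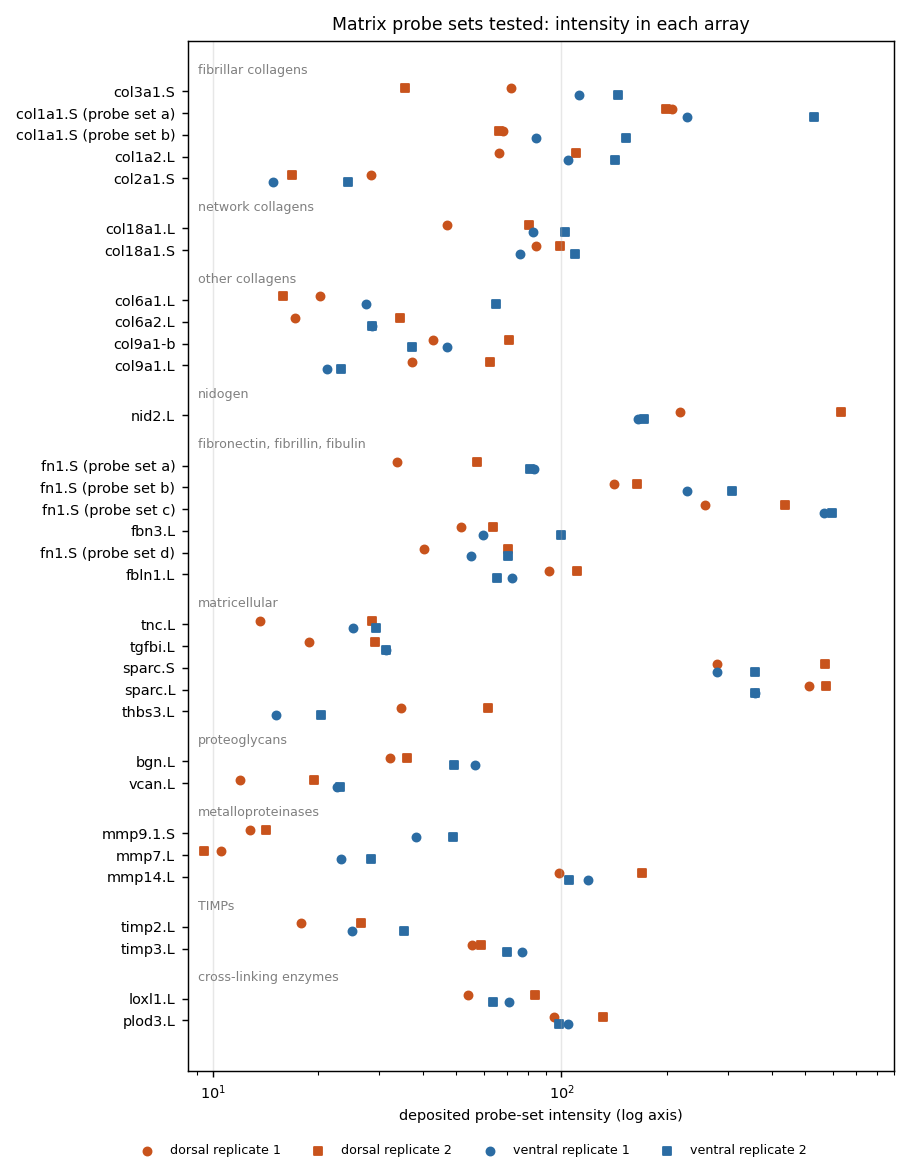
Deposited intensity of the 32 matrix probe sets tested, on a log axis, with 1 point per array (orange dorsal, blue ventral; circles replicate 1, squares replicate 2) and probe sets grouped by role. Probe sets of 1 gene carry letters in order of their difference, most ventral first; col3a1.S, fn1.S (a to c), mmp9.1.S and mmp7.L have both blue points right of both orange ones, and thbs3.L, nid2.L, sparc.L, fbln1.L and col9a1.L the reverse.

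Fibrillar collagens, the rope-like fibres that give tissue its tensile strength, had negative differences, ventral above dorsal, in 4 of the 5 probe sets tested. Values are given for replicates 1 and 2 in that order. The gene col3a1.S encodes type III collagen, which accompanies type I in soft and vascular tissues. Its bright probe set had intensities of 71.8 and 35.6 in dorsal arrays, against 112 and 145 in ventral arrays. Both ventral arrays lay above both dorsal arrays, and the dorsal replicates themselves differed by 0.90 on the log2 scale. The log2 difference was -1.23 ± 0.32 (SE; 95% confidence interval -1.98 to -0.49), a ventral over dorsal ratio of 2.35 on that scale, with an unadjusted p of 0.00587 and an adjusted p of 0.254 in limma. Leaving out dorsal replicate 1 gave -1.68, while leaving out dorsal replicate 2 gave -0.78. The other probe sets of col3a1.S were at or below 5.41 in every array, in the range of the empty controls.

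Type I collagen, the main fibre of connective tissue, is built from col1a1 and col1a2 chains. The col1a1.S probe set a had 207 and 199 in dorsal arrays, against 229 and 531 in ventral arrays. The groups did not overlap, but ventral replicate 1 lay close to the dorsal arrays and ventral replicate 2 far above. Probe set b of the same gene showed this too, with 68.1 and 66.4 in dorsal arrays, against 84.5 and 153 in ventral arrays. The log2 differences were -0.77 ± 0.36 (unadjusted p = 0.0681) and -0.71 ± 0.28 (unadjusted p = 0.0398), with adjusted p of 0.632 and 0.548 in limma. Without ventral replicate 2 the difference of probe set a was -0.17 and that of b -0.31. The partner chain col1a2.L overlapped, with dorsal values of 66.1 and 110 and ventral values of 104 and 142 (-0.48 ± 0.28). Type II collagen of cartilage and notochord, col2a1.S, overlapped and was dim, with dorsal values of 28.5 and 16.9 and ventral values of 14.9 and 24.5.

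Summed over the 8 fibrillar collagen probe sets, intensity was 452 and 440 in dorsal and 559 and 1008 in ventral arrays. Of the 5 tested, 2 had an unadjusted p under 0.05 in limma, both ventral, beside 5.21% ventral of all probe sets tested. In col3a1.S and col1a1.S, ventral replicate 2 was the highest array and dorsal replicate 2 the lowest. The dorsal arrays nearly tied in col1a1.S, at 207 and 199 in probe set a and 68.1 and 66.4 in probe set b. The lowest array was dorsal replicate 1 in col1a2.L and ventral replicate 1 in col2a1.S. The summed skeletal muscle and blood markers were lowest in dorsal replicate 2 and highest in ventral replicate 2, as given above. Their part in the collagen differences was not tested. The mesenchyme markers shared the highest array, ventral replicate 2, and were lowest in dorsal replicate 1.

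Type VI collagen forms beaded microfibrils around mesenchymal and muscle cells. Its chain gene col6a1.L had 20.4 and 15.9 in dorsal arrays, against 27.5 and 64.8 in ventral arrays. Again dorsal replicate 2 was lowest and ventral replicate 2 highest, with no overlap between groups. The log2 difference was -1.02 ± 0.36 (95% confidence interval -1.87 to -0.17; unadjusted p = 0.0257, adjusted p = 0.492). Dorsal values lay below 21.5, the highest empty control of any array, but above those of their own arrays (11.7 and 12.6). The size of the difference depends on the pseudocount. Without ventral replicate 2 it was -0.48. Its partner chain col6a2.L did not share the separation: the arrays overlapped, with dorsal values of 17.2 and 34.4 and ventral values of 28.7 and 28.7 (-0.18 ± 0.30).

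Type IX collagen decorates the surface of type II fibres in cartilage and notochord, and it ran the other way. The gene col9a1.L had 37.2 and 62.5 in dorsal arrays, against 21.2 and 23.3 in ventral arrays. Both dorsal arrays were above both ventral ones, with a log2 difference of 0.95 ± 0.27 (95% confidence interval 0.31 to 1.58; unadjusted p = 0.00969, adjusted p = 0.329). The related gene col9a1-b overlapped (dorsal 42.9 and 70.7, ventral 46.9 and 37.2), with a difference of 0.36 ± 0.27. In dorsal replicate 2 col9a1.L was 1.68 times and col9a1-b 1.65 times as bright as in dorsal replicate 1. Without dorsal replicate 2 the difference of col9a1.L was 0.61. Of the 5 notochord and cartilage markers, 2 were tested, and both overlapped between groups; their part in the col9a1.L difference was not tested. The second chain, col9a2.L, stayed at or below 5.98 in every array.

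Basement membrane genes were represented by nidogen 2 and by type XVIII collagen, whose released end is endostatin. The nidogen gene nid2.L, whose protein bridges the laminin and type IV collagen networks, had intensities of 218 and 633 in dorsal arrays, against 166 and 173 in ventral arrays. Dorsal replicate 2 stood far above the other 3 arrays, while dorsal replicate 1 was only slightly above the ventral pair. The log2 difference was 1.11 ± 0.43 (95% confidence interval 0.08 to 2.13; unadjusted p = 0.0376, adjusted p = 0.543). Leaving out dorsal replicate 2 gave 0.35 and leaving out dorsal replicate 1 gave 1.87, so that 1 array decides its size.

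The homeologues of collagen XVIII had different values. For col18a1.L the intensities were 47.0 and 80.5 in dorsal and 83.1 and 102 in ventral arrays, narrowly without overlap (-0.54 ± 0.27, unadjusted p = 0.0913, adjusted p = 0.654). Without dorsal replicate 1 its difference was -0.18, and without dorsal replicate 2 it was -0.89. The copy col18a1.S, with dorsal values of 84.7 and 99.3 and ventral values of 76.3 and 109, had a difference of 0.01 with a 95% confidence interval of -0.53 to 0.55. The difference between the copies was not tested. The 4 probe sets of the type IV collagen chains col4a1.L and col4a2.L lay between 0.291 and 10.98 in all arrays, in the range of the empty controls. No laminin, perlecan or agrin gene was named alone by a probe set, so these basement membrane components were not analysed here.

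**Figure D2:**
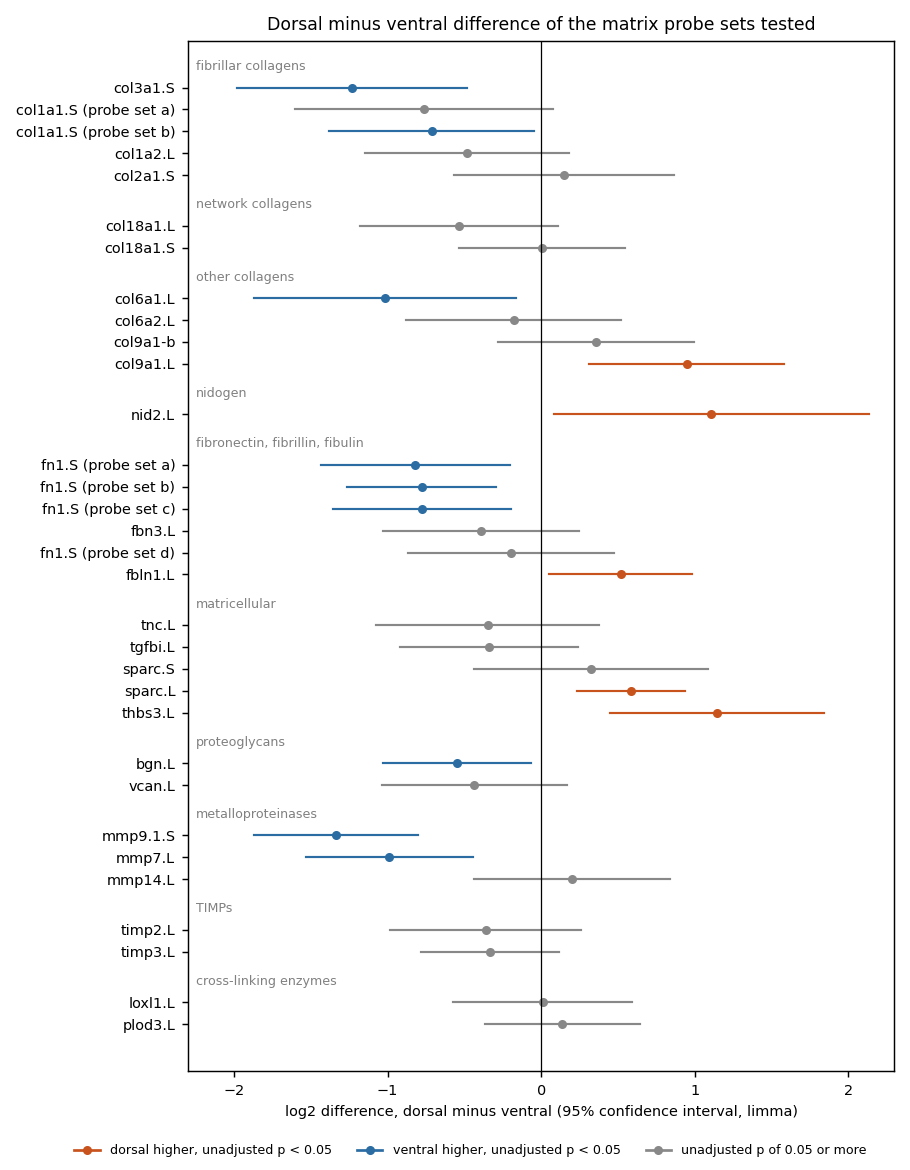
Log2 difference, dorsal minus ventral, of the 32 matrix probe sets tested (points) with the 95% confidence interval from limma (lines), grouped by role. Orange and blue mark an unadjusted p under 0.05 (5 dorsal, 9 ventral); 0 pass adjustment over all probe sets.

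Fibronectin is the glycoprotein along which embryonic cells attach and migrate, and it organises the assembly of other matrix. It was measured by 4 probe sets of fn1.S. Probe set c had 259 and 438 in dorsal arrays, against 565 and 597 in ventral arrays. Probe set b, of a type whose probes may also bind related transcripts, had 141 and 164 in dorsal and 229 and 308 in ventral arrays, and probe set a had 33.7 and 57.4 in dorsal and 83.5 and 81.5 in ventral arrays. In all 3, dorsal replicate 1 was lowest, dorsal replicate 2 next, and both ventral arrays lay above. The summed liver markers had the same order of dorsal arrays below ventral arrays, and their part in the fibronectin differences was not tested.

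In the order c, b and a, the log2 differences were -0.78 ± 0.25, -0.78 ± 0.20 and -0.82 ± 0.26, which are ventral over dorsal ratios of 1.71, 1.72 and 1.76. Unadjusted p was 0.016, 0.00658 and 0.0162, and adjusted p was 0.411, 0.265 and 0.412. Probe set d overlapped, with dorsal values of 40.3 and 70.3 and ventral values of 54.9 and 70.3 (-0.20 ± 0.28, adjusted p = 0.892). The 4 probe sets report on 1 gene and are not independent replicates. Without 1 array, probe sets a to c ran from -1.16 to -0.40, and probe set d from -0.56 to 0.16.

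Fibulin 1, which binds fibronectin and basement membrane proteins, ran opposite to fibronectin. The fbln1.L intensities were 92.1 and 111 in dorsal arrays, against 72.1 and 65.4 in ventral arrays. The 2 groups did not overlap and were compact, with a log2 difference of 0.52 ± 0.20 (95% confidence interval 0.05 to 0.98; unadjusted p = 0.0335, adjusted p = 0.525). Fibrillin, which builds the microfibrils that carry elastic fibres and store growth factors, overlapped: the bright probe set of fbn3.L had 51.7 and 63.7 in dorsal and 59.6 and 99.6 in ventral arrays (-0.39 ± 0.27). Its dim probe set had 7.92 and 23.8 in dorsal and 3.70 and 3.49 in ventral arrays, was not tested, and pointed to the other side.

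Matricellular proteins regulate how cells contact the matrix rather than building fibres. SPARC is a collagen-binding glycoprotein of basement membranes and remodelling tissue. The copy sparc.L, whose standard error was the smallest of the members tested, had 512 and 573 in dorsal arrays, against 358 and 359.7 in ventral arrays. All dorsal values lay above all ventral ones, by 0.59 ± 0.15 on the log2 scale (1.502-fold; 95% confidence interval 0.24 to 0.94; unadjusted p = 0.00546, adjusted p = 0.246). Without 1 array the difference ran from 0.51 to 0.67. The homeologue sparc.S overlapped, with dorsal values of 279 and 568 and ventral values of 279.5 and 359. Its difference was 0.32 ± 0.32, from -0.18 without dorsal replicate 2 to 0.83 without dorsal replicate 1. The difference between the copies was not tested.

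Thrombospondin 3, a secreted glycoprotein that assembles into pentamers and binds calcium, was brighter in both dorsal arrays. The bright probe set of thbs3.L had 34.6 and 61.4 in dorsal arrays, against 15.2 and 20.4 in ventral arrays. Both dorsal arrays lay above both ventral ones, by 1.14 ± 0.29 on the log2 scale (2.21-fold; 95% confidence interval 0.45 to 1.84; unadjusted p = 0.00602, adjusted p = 0.256). Ventral values lay below the highest empty control, so the size depends on the pseudocount, and it was 0.76 with 4 times the pseudocount. The other probe set of thbs3.L was at or below 3.12 in every array. Tenascin C, an anti-adhesive glycoprotein of mesenchyme, overlapped: the tested tnc.L probe set had dorsal values of 13.7 and 28.7 and ventral values of 25.3 and 29.3 (-0.35 ± 0.31). The other tnc.L probe set was not tested and also overlapped. It had 9.64 and 20.8 in dorsal and 9.73 and 6.57 in ventral arrays, with the dorsal mean above. For tgfbi.L, an adhesion protein induced by TGF-beta, the intensities were 18.8 and 29.2 in dorsal and 31.3 and 31.4 in ventral arrays (-0.34 ± 0.25, adjusted p = 0.753).

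The proteoglycans carry sulphated sugar chains that hold water and bind growth factors. Biglycan, a small proteoglycan that binds type I and type VI collagen, had 32.3 and 36.2 in dorsal arrays, against 56.7 and 49.2 in ventral arrays for bgn.L. The groups were compact and apart, with a log2 difference of -0.55 ± 0.20 (ventral over dorsal ratio 1.46; unadjusted p = 0.0308, adjusted p = 0.508). Without 1 array it ran from -0.64 to -0.46. Versican, a large proteoglycan of embryonic mesenchyme that binds hyaluronan, had 11.96 and 19.6 in dorsal and 22.8 and 23.2 in ventral arrays for vcan.L, a difference of -0.44 ± 0.26 (adjusted p = 0.695). The lumican gene lum.L and the hyaluronan synthase genes has1.S and has2.S were dim throughout, at most 9.67.

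Of the 3 metalloproteinase probe sets tested, 2 had ventral arrays above dorsal arrays, as did 18.1% of all probe sets tested. These 2, mmp9.1.S and mmp7.L, had a dorsal mean below the filter and were tested only through their ventral values. Their direction was therefore favoured by the filter, and the count carries no weight. The gelatinase gene mmp9.1.S, whose product digests denatured collagen and type IV collagen and is made by granulocytes and macrophages among other cells, had 12.8 and 14.3 in dorsal arrays. In ventral arrays it had 38.2 and 48.8, above both dorsal values. The log2 difference was -1.34 ± 0.23, a ventral over dorsal ratio of 2.52 (95% confidence interval -1.87 to -0.80; unadjusted p = 0.000584, adjusted p = 0.0957). It ran from -1.49 to -1.18 without 1 array. Both dorsal values were under 21.5, the brightest empty control, which came from ventral replicate 1. They lay above the brightest empty controls of their own arrays (11.7 and 12.6). The size of the difference hangs on the pseudocount, and with 4 times the pseudocount it was -0.84. The granulocyte peroxidase gene epx.L had 29.6 and 37.7 in dorsal and 115 and 222 in ventral arrays, and mpo.L had 38.6 and 59.3 in dorsal and 136 and 217 in ventral arrays. The part of blood cells in the mmp9.1.S difference was not tested.

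Matrilysin, a small metalloproteinase, had 10.6 and 9.48 in dorsal arrays, against 23.4 and 28.4 in ventral arrays for the bright probe set of mmp7.L. The log2 difference was -0.99 ± 0.23 (unadjusted p = 0.00354, adjusted p = 0.206), and it was -0.55 with 4 times the pseudocount, both dorsal values being under the highest empty control. This probe set lay just inside the filter, at a mean log2 of 4.50 where the limit was 4.40. The nearest members on either side were vcan.L at 4.64 inside and mmp28.L at 4.34 outside. The other mmp7.L probe set was between 5.43 and 9.89 in all arrays, with overlap. The part of blood cells in the mmp7.L difference was not tested. The membrane-anchored protease gene mmp14.L, which cuts fibrillar collagen at the cell surface, overlapped, with dorsal values of 98.6 and 170 and ventral values of 119 and 105 (0.20, 95% confidence interval -0.44 to 0.84).

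Of 14 metalloproteinase probe sets, 3 were tested, and 10 were at or below the highest empty control in all arrays. Among the untested, mmp11.L, a stromelysin induced during frog metamorphosis, had 1.25 and 13.7 in dorsal and 21.7 and 16.9 in ventral arrays. The collagenase genes mmp1.S, mmp13l.L and mmp13l.S did not exceed 10.5, and the gelatinase gene mmp2.S did not exceed 13.6.

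Inhibitors of metalloproteinases had differences under 0.5 on the log2 scale. The matrix-bound inhibitor timp3.L had 55.3 and 59.0 in dorsal arrays, against 77.2 and 70.0 in ventral arrays for the probe set tested, without overlap (-0.33 ± 0.19, adjusted p = 0.687). That probe set is of the type whose probes may also bind related transcripts. The other timp3.L probe sets were not tested, overlapped between groups and did not exceed 17.9 in any array. In both of these the dorsal mean lay above, opposite to the tested probe set. For timp2.L the arrays overlapped, with dorsal values of 17.9 and 26.7 and ventral values of 25.2 and 35.5 (-0.36 ± 0.26), and its homeologue timp2.S stayed between 8.09 and 12.4. The enzymes that modify collagen overlapped too. Lysyl oxidase-like 1, which cross-links elastin and collagen, had 54.1 and 84.2 in dorsal and 70.6 and 63.8 in ventral arrays for loxl1.L. Its log2 difference was 0.01, with a 95% confidence interval of -0.57 to 0.59. The lysyl hydroxylase gene plod3.L had 95.5 and 132 in dorsal and 104 and 98.6 in ventral arrays (0.14, -0.37 to 0.64).

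The dorsal replicates did not match well, in the matrix genes as over all probe sets tested. The SD of dorsal replicate 2 minus 1 on the log2 scale was 0.476 for the members and 0.483 over all probe sets tested. In the ventral pair it was 0.357 and 0.288. Dorsal replicate 2 exceeded dorsal replicate 1 in 26 of 32 tested members (81.2%), beside 52.0% of all probe sets tested, and the median difference was 0.47 on the log2 scale, beside 0.02. In the ventral pair, replicate 2 exceeded replicate 1 in 24 of 32 (75.0%, beside 49.6% of all probe sets tested), with a median difference of 0.20. Mesenchyme and smooth muscle markers had replicate 2 above replicate 1 in 11 of 11 tested probe sets of the dorsal pair (median 0.54) and in 11 of 11 of the ventral pair (median 0.40). Liver markers did in 20 of 23 of the dorsal pair (median 0.89) and 8 of 23 of the ventral pair. The part of these cell types in the replicate differences was not tested. The largest dorsal gaps were those of nid2.L (2.91-fold), tnc.L (2.10-fold) and sparc.S (2.04-fold), all with dorsal replicate 2 higher, while col3a1.S, col2a1.S and col6a1.L had dorsal replicate 1 higher. Of the 32 members, 19 had their lowest value in dorsal replicate 1 and 16 their highest in ventral replicate 2.

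**Figure D3:**
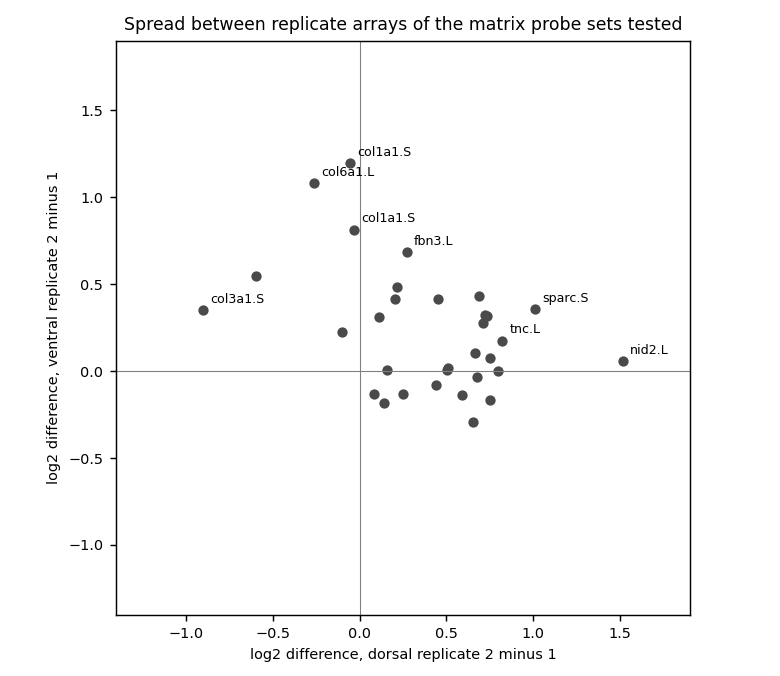
Log2 difference between replicate arrays of the 32 matrix probe sets tested, dorsal replicate 2 minus 1 (x axis) against ventral replicate 2 minus 1 (y axis), 1 point per probe set. Most points lie right of 0, led by nid2.L and sparc.S, while col1a1.S and col6a1.L lie high on the y axis and near or left of 0 on the x axis.

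**Figure D4:**
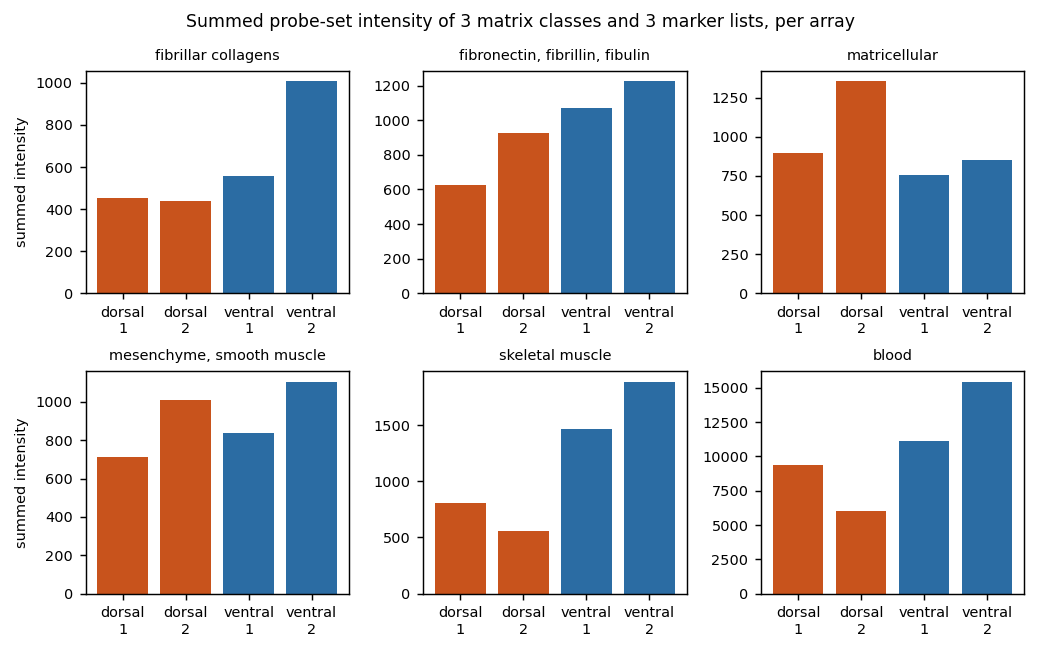
Summed deposited intensity of all probe sets of 3 matrix classes (top) and 3 marker lists (bottom) in each array, orange dorsal and blue ventral. Fibrillar collagens, skeletal muscle and blood are lowest in dorsal replicate 2 and highest in ventral replicate 2. In the fibrillar collagens the dorsal arrays nearly tie. The matricellular class is highest in dorsal replicate 2, and mesenchyme markers overlap.

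Members too dim to be tested numbered 37 probe sets, and 25 genes had no tested probe set. Of all 69, 34 were at or below the highest empty control in all 4 arrays. The highest value among the untested was 24.3, that of the matrilin gene matn4.L in dorsal replicate 2, where its other arrays lay between 5.07 and 5.81. Both probe sets of thbs1.L, an anti-angiogenic thrombospondin, had their dorsal arrays above their ventral arrays, at 10.0 and 7.48 against 5.06 and 5.53 in one, and at 2.82 and 19.3 against 2.15 and 1.68 in the other. At such levels the files give no detection call, so whether these genes were measured at all is unknown.

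Genes that fold and process collagen, and the cell's matrix receptors, were taken as further lists of the pathway. The first list also holds matrix genes that do neither, such as hapln3.L and emilin1.L. In the folding and processing list 16 of 27 probe sets were tested, with a median difference of 0.004, and 0 passed adjustment in limma. There, 2 reached an unadjusted p under 0.05 (12.5%, beside 8.62% of all probe sets tested), both dorsal. These were pcolce2.S, an enhancer of collagen propeptide removal, and the hyaluronan link protein gene hapln3.L. For pcolce2.S the intensities were 29.6 and 30.5 in dorsal and 14.6 and 6.37 in ventral arrays (1.18 ± 0.29, adjusted p = 0.235). The ventral ones lay below the highest empty control, so that the size depends on the pseudocount. The ventral mean of pcolce2.S was also below the filter, so it was tested only through its dorsal values and its direction carries no weight. For hapln3.L the intensities were 49.4 and 71.5 in dorsal and 35.1 and 29.6 in ventral arrays (0.78 ± 0.24, adjusted p = 0.397). The elastic fibre gene emilin1.L resembled nid2.L in its spread, with 55.3 and 159 in dorsal arrays, against 67.4 and 63.7 in ventral arrays.

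Of the matrix receptors, 18 of 48 probe sets were tested, 15 of them with a negative difference, beside 4243 of all 9294 probe sets tested. In limma 0 passed adjustment and 5 (27.8%) reached an unadjusted p under 0.05, all ventral, beside 5.21% ventral of all probe sets tested. The median difference of the receptors was -0.26. The syndecan gene sdc4, a heparan sulphate receptor for fibronectin, had its ventral arrays above its dorsal arrays in both homeologues. Intensities of sdc4.L were 56.2 and 49.6 in dorsal and 76.2 and 140 in ventral arrays (-0.90 ± 0.29, adjusted p = 0.429). Those of sdc4.S were 17.0 and 13.4 in dorsal and 30.0 and 42.4 in ventral arrays (-0.98 ± 0.25, adjusted p = 0.243). The integrin gene itga2b.2.L, related to the platelet receptor for fibrinogen, had 14.9 and 5.21 in dorsal and 17.4 and 34.2 in ventral arrays (-1.005 ± 0.39, adjusted p = 0.536). Dorsal values of sdc4.S and itga2b.2.L were below the highest empty control, with the same dependence on the pseudocount. Both had a dorsal mean below the filter, so they were tested only through their ventral values. They are among the 5, and their direction carries no weight there. In sdc4.L, sdc4.S and itga2b.2.L too, dorsal replicate 2 was lowest and ventral replicate 2 highest, the extremes of the muscle and blood sums. The part of muscle and blood cells in the receptor differences was not tested.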

How the data were processed

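The deposited values are probe-set intensities on a linear scale, 1 column per array, and MAS5 is named without a version in the submitters' processing notes; the scaling target and detection calls are not given in the sources used here. Labelled RNA was made from cDNA primed at the poly(A) tail, per the labels' protocols, which favours 3′ ends. Before log2, 6 was added to each value as a pseudocount (the 20th percentile over all arrays), which shrinks the fold changes of dim genes. Of 15611 probe sets, 120 controls were left out. The 9294 with a mean log2 above its 40th percentile were tested two-sided in R 4.3.3 using limma 3.58.1 (lmFit, then eBayes with an intensity trend; no covariate), with Benjamini-Hochberg adjustment and a threshold of 0.05. The procedure was tested on simulated data, with planted differences larger than any member difference and equal spread in both groups. That test cannot show how well differences of the size given here are found. The highest of 17 empty tag controls over all arrays (21.5, in ventral replicate 1) marks dim values. In the other arrays the highest was 11.7 and 12.6 in dorsal replicates 1 and 2, and 9.37 in ventral replicate 2. Of 9304 probe sets with 1 gene symbol, 9227 matched RefSeq gene identifiers of assembly Xenopus_laevis_v10.1; all 69 members matched, and 0 of their symbols changed. A further 3 probe sets with several symbols were left out.

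Members and lists were chosen with earlier results of these data known. Named members were those with an adjusted or unadjusted p under 0.05, the 3 with the largest difference and the brightest in each role, and other probe sets and homeologues of these genes; of other lists, the 3 with the largest difference. Some other members are also given, but not every dim, untested member is named. mpo.L and epx.L are in the blood list. Alternatives were other pseudocounts, filters and normalization, no trend, a replicate block, 1 probe set per gene and leaving out each array.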

Additional observations from a re-analysis of the deposited data

How the results depend on the processing

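The count of matrix members past the threshold stayed at 0 with a pseudocount of 1, with 4 times the pseudocount, with no filter, with the filter at the 60th percentile, with quantile normalization, without the intensity trend, with the replicate block and with 1 probe set per gene; without 1 array it ran from 0 to 10. The median difference of the members ran from -0.58 to -0.14 without 1 array and from -0.41 to -0.20 under the other alternatives. Members whose groups do not overlap numbered 30 of 69 with no filter, 12 of 21 with the filter at the 60th percentile, and 21 to 30 without 1 array, where a lone array separates more easily; fewer or more members were tested in the first 2. Over all probe sets the 24 calls became 13 with the filter at the 60th percentile and ran from 4 to 902 without 1 array; the cause was not tested. With the replicate number as a block there were 67 calls over all probe sets and 0 among members, but nothing says that a number links 2 pools (the replicate differences of dorsal and ventral arrays correlated at r = 0.05 across probe sets). All 27 named probe sets kept their sign under the pseudocounts, quantile normalization, no filter, no trend and the block, as did the 19 left by the stricter filter. Without 1 array 7 changed sign: fn1.S probe set d (-0.56 to 0.16), col18a1.S (-0.23 to 0.25), mmp14.L (-0.17 to 0.58), tnc.L (-0.76 to 0.063), plod3.L (-0.083 to 0.36), loxl1.L (-0.28 to 0.30) and sparc.S (-0.18 to 0.83). With 2 arrays per group and unknown detection, differences of dim genes cannot be ranked.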
